A study of Mus musculus with 24 samples.

Results

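Peaks of the histone marks H3K4me2 and H3K27me3 were set against each other in the 2 control lines of a mouse small cell lung cancer study, lines 159-1 and 1014. The members were the 2 H3K4me2 lists and the 2 H3K27me3 lists of these lines, 4 of the 24 samples of the series and 4 of the 14 that have a peak list here. Chromatin immunoprecipitation with sequencing (ChIP-seq) recovers DNA bound to a chosen histone mark or protein, and a peak is a stretch where the recovered reads exceed the background. The 4 libraries asked which genes and regions of these tumour cells carried the active mark, which carried the Polycomb mark, and which carried both at once.

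Lines 236L and 236R were grown from tumours of the RPP mouse model that carried a guide RNA against Kdm6a, and are called mutant lines here. Lines 159-1 and 1014 came from RPP tumours with a control guide RNA and have wild-type Kdm6a. All 4 lines share the RPP background, in which the tumour suppressors Rb1, Trp53 and Rbl2 are deleted, and all were untreated early passage lines plated in ultra-low attachment dishes and collected 24 h later. Each mark was profiled once per line, so a line is the replicate, each line is a single tumour-derived culture, and the labels do not say whether 2 lines came from separate animals. KDM6A and H3K4me1 lists of the control lines, and the H3K4me2 and H3K27me3 lists of the mutant lines, served as readouts that did not define the classes.

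H3K4me2 is a methyl mark of histone H3 found at promoters and enhancers that are active or poised. H3K27me3 is placed by the Polycomb complex PRC2 and lies over silenced developmental genes, often in broad domains, and at many CpG-rich promoters it is found together with H3K4 methylation, a state called bivalent. KDM6A removes H3K27 methylation and works within the KMT2C and KMT2D complexes, which place H3K4me1 at enhancers. Small cell lung cancer is a neuroendocrine tumour in which lineage factors such as NEUROD1 and POU2F3 define subtypes.

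The deposited names of the 2 H3K4me2 control lists give the other line than their sample labels, so they are named below as the libraries labelled 159-1 and 1014. Results that need a mark in both lines are the same either way, and the bin classes per line, the co-covered genes and the bins of opposite state were also computed with the lists exchanged. Of the 13163 bins of 1 kb with H3K4me2 in the library labelled 159-1 alone, 61.4% held an H3K4me1 peak of 159-1 and 74.1% one of 1014. Of the 16675 bins with H3K4me2 in the library labelled 1014 alone, 50.0% held H3K4me1 of 159-1 and 42.5% held that of 1014. KDM6A of 159-1 and 1014 lay on 6.31 and 7.65% of the first set of bins and on 7.09 and 2.09% of the second. Each library's own bins overlapped more often with H3K4me1 and KDM6A of the line its deposited name gives than of the line on its label.

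The H3K4me2 lists held 58368 peaks in the library labelled 159-1 and 56481 in that labelled 1014, covering 85.2 and 87.6 Mb. The H3K27me3 lists held 31655 peaks in 159-1 and 52080 in 1014, covering 45.4 and 110 Mb, so the Polycomb lists of the 2 lines differed far more in length than the H3K4me2 lists. Covered length averaged 86.4 ± 1.74 Mb for H3K4me2 and 77.8 ± 45.9 Mb for H3K27me3 (SD, n = 2 each), a difference of 8.57 Mb that was 39.8 Mb in 159-1 and -22.7 Mb in 1014 (exact two-sided permutation test, p = 1). The median peak was 0.974 and 1.08 kb wide for H3K4me2 and 0.816 and 0.925 kb wide for H3K27me3, with p = 0.333 by the exact permutation test, the smallest p that 2 libraries against 2 allow. With peaks of q up to 0.001 the difference in median width, 0.155 kb over all peaks, turned to -2.41 kb. The median of the authors' deposited fold per peak averaged 5.00 ± 0.358 over the H3K4me2 lists and 3.17 ± 0.233 over the H3K27me3 lists (SD, n = 2 each), and 74.1 and 82.5% of H3K4me2 peaks against 5.52 and 10.8% of H3K27me3 peaks had a deposited q of 0.001 or less. Sequencing depth is unknown here, so a longer list can stand for a deeper or better enriched library as well as for more marked chromatin. Markers of cell types were also read. All 8 neuroendocrine markers, among them Insm1, Chga, Syp, Ncam1, Calca, Dll3 and Uchl1, had H3K4me2 without H3K27me3 in both lines. They had 5.09 to 15.3 kb of H3K4me2 each and no base of H3K27me3 at 7 of them. By the gene rule given below, 61.8% of all genes had H3K4me2 only and a further 10.2% had both marks. All 3 lung epithelial markers had H3K4me2 only too, so this state does not by itself give cell identity. The pan-leukocyte gene Ptprc had no H3K4me2 in its window, while the other markers of immune, fibroblast, endothelial and lung epithelial cells were mixed, with H3K4me2 at 2 of 4 immune, 3 of 3 fibroblast, 1 of 2 endothelial and 3 of 3 lung epithelial markers. Summed H3K4me2 over those lists was 5.81 and 5.74 kb for immune, 13.4 and 13.4 kb for fibroblast, 9.39 and 6.17 kb for endothelial and 17.7 and 12.9 kb for lung epithelial markers, against 72.0 and 79.5 kb for the neuroendocrine markers. These lists differ in size, so the sums are not values per gene. The 2 immune markers with H3K4me2 and 2 of the 3 fibroblast markers also had H3K27me3 in both lines. Summed H3K27me3 in 159-1 and 1014 was 30.6 and 55.6 kb for immune, 20.4 and 38.7 kb for fibroblast and 10.6 and 21.8 kb for endothelial markers. It was 0 and 0.619 kb for lung epithelial and 0 and 0.613 kb for neuroendocrine markers. Fibroblast markers were thus not free of the active mark, and the part of other cells in these cultures was not tested.

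Transcription starts showed the 2 marks most directly. Starts came from the RefSeq promoter table of GRCm38.p6, the same assembly as mm10, which holds 21263 starts for 17492 of the 21887 protein-coding genes. A start counted as marked where peaks covered at least 1 kb of the 2 kb around it in both lines. By this measure 458 starts had both marks (2.15%), 11925 had H3K4me2 only (56.1%), 738 had H3K27me3 only (3.47%) and 8142 had neither (38.3%). Starts with both marks were CpG-rich, with a median of 23 CG dinucleotides in the 300-base promoter, close to the 22 at H3K4me2-only starts, against 10 at H3K27me3-only starts, 3 at starts with neither mark and 13 over all starts. The CG motif reads the same on both strands and 95.4% of all 300-base promoters hold at least 1, so its number rather than its presence was compared.

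The 7 promoters printed here show this range, and were picked for display after their values were seen. Each runs 5′ to 3′ on the gene's own strand, 300 bases across the RefSeq start in GRCm38.p6, with each CG in capitals. Chga, which encodes the secretory granule protein chromogranin A, and Nkx2-1, a lung lineage factor, stand for H3K4me2 alone. Gata3, a factor of T cells and epithelia, and Zic5, a zinc finger factor of neural development, stand for both marks. Hoxa11, of limb and reproductive tract patterning, and Msx2, a homeobox factor of craniofacial development, stand for H3K27me3 alone, and Ptprc for neither.
Chga: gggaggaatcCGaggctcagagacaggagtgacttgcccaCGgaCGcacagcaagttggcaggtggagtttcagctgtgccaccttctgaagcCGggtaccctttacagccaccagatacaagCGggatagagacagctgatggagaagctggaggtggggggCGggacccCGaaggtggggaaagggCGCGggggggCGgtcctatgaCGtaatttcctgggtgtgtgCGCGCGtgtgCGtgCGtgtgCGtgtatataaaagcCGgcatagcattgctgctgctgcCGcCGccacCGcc
Nkx2-1: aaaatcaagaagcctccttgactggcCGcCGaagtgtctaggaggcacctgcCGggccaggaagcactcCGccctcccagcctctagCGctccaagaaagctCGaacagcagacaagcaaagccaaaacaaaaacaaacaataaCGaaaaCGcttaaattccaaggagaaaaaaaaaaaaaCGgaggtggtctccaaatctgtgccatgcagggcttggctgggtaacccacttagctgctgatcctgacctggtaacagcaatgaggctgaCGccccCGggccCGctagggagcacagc
Gata3: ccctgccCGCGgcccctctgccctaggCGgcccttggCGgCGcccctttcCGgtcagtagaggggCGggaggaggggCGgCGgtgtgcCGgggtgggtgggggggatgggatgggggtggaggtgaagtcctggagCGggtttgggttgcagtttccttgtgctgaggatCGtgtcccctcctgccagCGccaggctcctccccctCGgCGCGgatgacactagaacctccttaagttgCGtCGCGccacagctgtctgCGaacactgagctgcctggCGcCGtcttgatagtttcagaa
Zic5: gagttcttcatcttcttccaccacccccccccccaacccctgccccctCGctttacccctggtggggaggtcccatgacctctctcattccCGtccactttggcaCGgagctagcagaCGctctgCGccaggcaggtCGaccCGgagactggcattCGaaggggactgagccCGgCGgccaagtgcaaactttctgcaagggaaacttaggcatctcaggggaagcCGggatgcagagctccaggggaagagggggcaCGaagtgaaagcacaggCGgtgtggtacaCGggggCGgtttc
Hoxa11: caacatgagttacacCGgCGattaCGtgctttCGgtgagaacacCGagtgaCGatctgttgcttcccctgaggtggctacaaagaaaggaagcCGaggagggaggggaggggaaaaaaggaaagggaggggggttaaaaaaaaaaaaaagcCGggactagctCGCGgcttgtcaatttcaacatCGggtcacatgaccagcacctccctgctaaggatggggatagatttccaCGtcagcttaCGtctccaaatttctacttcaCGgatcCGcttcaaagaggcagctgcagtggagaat
Msx2: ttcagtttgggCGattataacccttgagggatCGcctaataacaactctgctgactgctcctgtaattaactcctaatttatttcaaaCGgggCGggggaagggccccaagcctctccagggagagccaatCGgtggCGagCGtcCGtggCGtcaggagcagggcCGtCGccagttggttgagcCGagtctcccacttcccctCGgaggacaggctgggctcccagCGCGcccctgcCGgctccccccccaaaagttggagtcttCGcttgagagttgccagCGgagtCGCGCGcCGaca
Ptprc: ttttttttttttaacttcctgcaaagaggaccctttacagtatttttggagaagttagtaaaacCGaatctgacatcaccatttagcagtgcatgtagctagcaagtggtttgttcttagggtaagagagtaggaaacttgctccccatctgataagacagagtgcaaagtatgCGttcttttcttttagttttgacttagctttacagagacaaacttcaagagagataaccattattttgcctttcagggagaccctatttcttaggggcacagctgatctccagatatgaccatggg

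The Chga promoter (chr12:102554691-102554990, plus strand) has 21 CG and its start window was covered in full by H3K4me2 in both lines, with no H3K27me3. Nkx2-1 (chr12:56536859-56537158, minus strand) has 12 CG and the same full H3K4me2 cover. Gata3 (chr2:9878551-9878850, minus strand) has 22 CG, with 1.11 and 1.11 kb of H3K4me2 in the libraries labelled 159-1 and 1014 inside a window that H3K27me3 covered whole, 2 kb of 2 kb, in both lines. Zic5 (chr14:122465609-122465908, minus strand) has 15 CG, 1.15 and 1.28 kb of H3K4me2, and 1.72 and 2 kb of H3K27me3. Hoxa11 (chr6:52245761-52246060, minus strand) with 15 CG and Msx2 (chr13:53472731-53473030, minus strand) with 22 CG were covered whole by H3K27me3 and had no H3K4me2. Ptprc (chr1:138175077-138175376, minus strand) has 2 CG and no peak of either mark in its start window. Msx2 thus has as many CG as Gata3, and 31.3% of all starts have as many or more, yet the H3K4me2 seen at Gata3 was not called at Msx2.

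**Figure D1:**
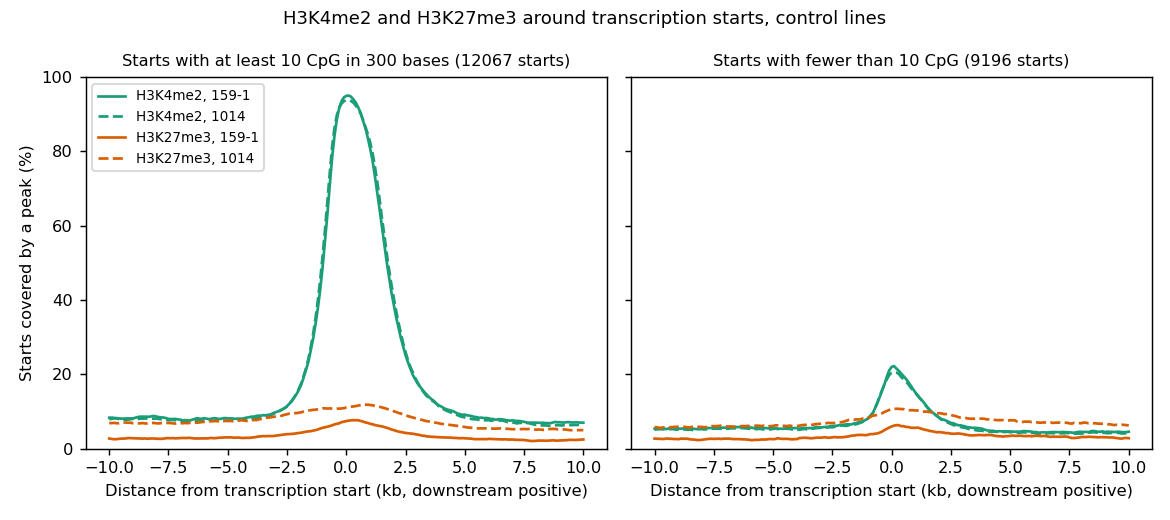
Share of transcription starts covered by a peak (%, y axis) against distance from the start (kb, x axis) for starts with 10 or more CpG (left) and fewer than 10 CpG (right). H3K4me2 is green and H3K27me3 orange, with solid lines for 159-1 and dashed lines for 1014; H3K4me2 peaks at the start in both panels while H3K27me3 is low and broad.

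At the start itself, H3K4me2 covered 94.9 and 93.7% of starts with 10 or more CpG and 22.0 and 20.4% of starts with fewer than 10 CpG in the libraries labelled 159-1 and 1014. H3K27me3 covered 7.47 and 11.1% of the 12067 starts with 10 or more CpG and 6.00 and 10.7% of the 9196 with fewer than 10 CpG in 159-1 and 1014. The H3K4me2 share thus differed widely between CpG-rich and CpG-poor starts, while the H3K27me3 share differed by less than its gap between the lines.

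Split by whether H3K4me2 was there, H3K27me3 followed the CpG number at starts that lacked H3K4me2. Of the 49 starts with 30 to 67 CG and H3K4me2 in neither line, 33 had H3K27me3 in 159-1 and 33 in 1014 (67.3 and 67.3%). Of the 3183 starts with as many CG and H3K4me2 in both lines, 4.74 and 8.07% had it. For 20 to 29 CG, 49.3 and 57.4% of 148 starts without H3K4me2 had H3K27me3, against 3.75 and 6.83% of 4128 with H3K4me2. Starts with 10 to 19 CG gave 28.0 and 36.9% of 624 without H3K4me2, against 3.79 and 7.31% of 3611 with it. Among starts with 0 to 5 CG the shares were 3.72 and 7.68% of 6123 without H3K4me2 and 2.63 and 4.55% of 571 with it, so the gap narrowed as CG became scarce, in each line. Starts are not replicates and some share a promoter, so these shares carry no test, and few CpG-rich starts lack H3K4me2 at all.

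**Figure D2:**
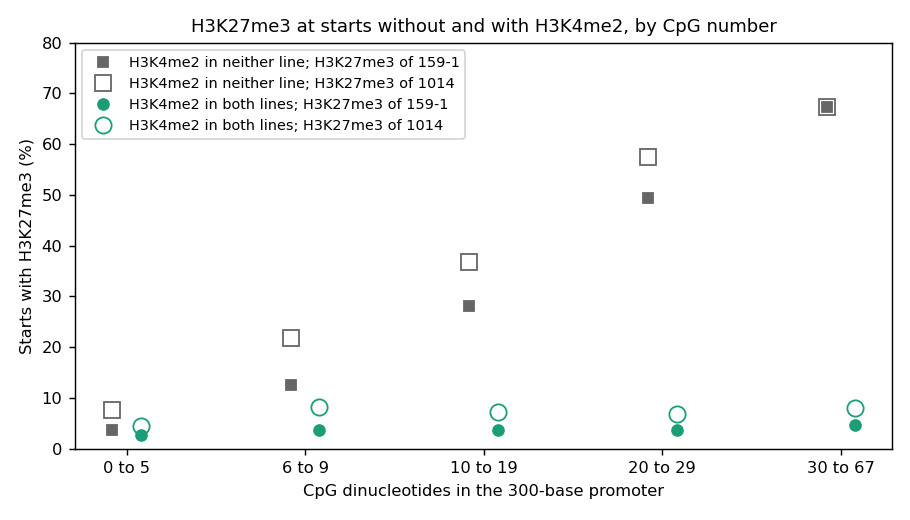
Share of starts with H3K27me3 (%, y axis) by the number of CpG in the promoter (x axis), at starts with H3K4me2 in neither line (grey squares) and in both lines (green circles), for H3K27me3 of 159-1 (filled) and 1014 (open). Grey squares reach 67.3% in both lines in the highest class, while green circles stay at or under 8.20% in every class.

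The starts also differed in libraries that had not defined them. H3K4me1 lay on 78.4% of starts with both marks in 159-1 and on 61.8% in 1014, against 13.6 and 12.4% of H3K4me2-only starts. KDM6A lay on 20.1 and 11.4% of starts with both marks, against 46.7 and 41.7% of H3K4me2-only starts, and on 1.08 and 0.271% of H3K27me3-only starts. Starts with both marks therefore held H3K4me1 more often, and KDM6A less often, than starts with H3K4me2 alone, in each of the 2 lines.

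Across the genome, bins of 1 kb were called marked where peaks covered at least 50% of the bin in both lines. Of 2722413 bins, 1794 had both marks, 65638 H3K4me2 only, 30546 H3K27me3 only and 2624435 neither. H3K4me2 bins made 2.48% and H3K27me3 bins 1.19% of the genome, and 2.66% of H3K4me2 bins had H3K27me3 while 5.55% of H3K27me3 bins had H3K4me2. "Only" means that the other mark was not called in both lines, and in practice 97.1% of H3K4me2-only bins had H3K27me3 in no line and 97.5% of H3K27me3-only bins had H3K4me2 in no line. If the marks were spread independently, 801 bins would have had both, so the overlap was 2.24 times that number, with an odds ratio of 2.35. Within single lines, by sample label, the odds ratio was 1.91 in 159-1 and 1.52 in 1014. With the H3K4me2 lists exchanged it was 1.89 against H3K27me3 of 159-1 and 1.40 against that of 1014. For bins marked in both lines it lay above 1 on 18 of 19 autosomes, from 0.936 on chromosome 11 to 8.22 on chromosome 3. Chromosome X had 38 H3K27me3 bins, of which 13 also had H3K4me2.

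The overlap differed by nearness to genes. Bins within 2.5 kb of a gene end made 69.3% of bins with both marks, 48.7% of H3K4me2-only bins, 18.4% of H3K27me3-only bins and 6.69% of all bins. Within that zone the odds ratio was 0.994, or 0.981 in 159-1 and 0.916 in 1014, so over the whole zone the marks met about as often as independent marks would. The zone pools the start and the far end of each gene. At starts alone, as given above, H3K27me3 was less frequent with H3K4me2 in both lines than with it in neither. That held in every CpG class and for H3K27me3 of each line. Inside genes but farther from their ends it was 1.17 over both lines, and 0.953 and 0.893 in 159-1 and 1014. Between genes it was 2.27, and 1.57 without 2 long stretches described next. The odds ratio of all bins rose to 5.98 with peaks of q up to 0.001, and the value near gene ends ran from 0.725 to 1.15 over the alternatives tried. The number of bins with both marks was 2309 in 159-1 alone and 4804 in 1014 alone by sample label. With the H3K4me2 lists exchanged it was 2384 against H3K27me3 of 159-1 and 4269 against that of 1014. With peaks of q up to 0.001 in both lines it was 778.

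Most stretches of adjacent bins with both marks were short: 911 of 1273 were a single bin. In 531 of the 1273 (41.7%) the bins on both sides had H3K27me3 only, whereas H3K4me2 only flanked both sides in 10 (0.786%). A further 324 had H3K27me3 only on one side and neither mark on the other, and 148 had H3K4me2 only on one side and H3K27me3 only on the other. The 2 longest, of 59 kb (chr8:123565001-123624000) and 27 kb (chr8:123537001-123564000), hold no protein-coding gene and made 4.79% of all bins with both marks. There the H3K4me2, H3K27me3 and H3K4me1 peaks of both control lines covered at least 98.4% of each stretch and KDM6A peaks 39.6 to 57.7%, the mutant lines had H3K4me2 over 98.6% or more, and a single peak of about the same 87 kb was the widest of every H3K4me2 and H3K4me1 list. Libraries of every mark and of KDM6A thus had peaks at these 2 stretches, and no input library has a peak list here to set beside them. Without them 1708 bins had both marks and the odds ratio over all bins was 2.24.

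Long stretches with one mark lay over different genes for the 2 marks, with developmental factors as well as other genes among both. H3K4me2 alone ran for 57 kb within Aopep, an aminopeptidase gene, and for 38 kb where no protein-coding gene lies (chr15:85653001-85691000). It also ran for 23 kb over Meis2, 22 kb over Nkx2-1, 22 kb over Foxa2 and 19 kb over Cdkn1b, which encodes the cell cycle inhibitor p27. Meis2 encodes a homeobox factor, and Nkx2-1 and Foxa2 encode factors of the lung epithelial lineage. H3K27me3 alone ran for 39 kb over Hoxc5 to Hoxc9, 32 kb over Hoxc10 and Hoxc11, 31 kb over Pitx1, a hindlimb factor, 31 kb over Grik3, a glutamate receptor gene, 28 kb over Barhl2, a neural homeobox gene, and 26 kb over Msx2. Stretches of 20 kb or more numbered 2 with both marks, 6 with H3K4me2 only and 27 with H3K27me3 only, although H3K27me3-only bins were fewer than H3K4me2-only bins.

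Genes were classed over the body with 10 kb on each side, as marked where peaks covered at least 1 kb in both lines. Of 21887 protein-coding genes, 2229 had both marks (10.2%), 13519 H3K4me2 only (61.8%), 1096 H3K27me3 only (5.01%) and 5043 neither (23.0%). Both marks in one window did not always mean the same bases: of the 2229 genes, 1481 (66.4%) had bases under both marks in both lines and 748 had none. Genes with at least 1 kb under both marks at the same bases in both lines, called co-covered here, numbered 958 (4.38% of all genes), and 990 with the H3K4me2 lists exchanged. H3K4me2-only genes with no base of H3K27me3 in either line numbered 10618, and H3K27me3-only genes with no base of H3K4me2 numbered 442. With peaks of q up to 0.001 genes with both marks numbered 625 and H3K27me3-only genes 312, and 2526 genes had both marks in 159-1 alone against 4136 in 1014 alone.

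The 8 genes with the most co-covered length were, in order, Gas8, Fcgr3, Erfl, Wnt10a, Gm40365, Skor1, Scarf2 and Zic5. Wnt10a, a WNT ligand of tooth and skin appendage development (chr1:74792019-74804176), had 8.56 kb of H3K4me2 in the library labelled 159-1 and 9.32 kb in that labelled 1014, 19.5 and 31.0 kb of H3K27me3 in 159-1 and 1014, and 6.79 and 9.32 kb under both. All of its H3K4me2 in the library labelled 1014 thus lay inside H3K27me3 of 1014. Skor1, a corepressor of the SKI family (chr9:63138164-63148961), had 14.8 and 14.3 kb of H3K4me2, 10.1 and 18.8 kb of H3K27me3, and 6.20 and 10.9 kb under both. Zic5 (chr14:122459160-122465658) had 7.15 and 7.54 kb of H3K4me2, 20.3 and 26.5 kb of H3K27me3, and 5.68 and 7.54 kb under both. Barx1, a homeobox factor of tooth and stomach development that was ranked by share of the window (chr13:48663036-48666507), had 7.14 and 7.11 kb of H3K4me2, 12.0 and 17.7 kb of H3K27me3, and 5.17 and 5.74 kb under both. Gas8, Fcgr3, Erfl, Gm40365, Scarf2 and Tmem59l, the last again ranked by share of the window, had 5.21 to 9.23 kb under both in 159-1. The flank of Gas8 (chr8:123518835-123536657) reaches the 27 kb stretch on chromosome 8. That of Fcgr3 (chr1:171051169-171065915) reaches a 5 kb stretch with both marks (chr1:171070001-171075000). Both genes end before these stretches begin, so their bases under both marks in the stretches lie in the flanks, outside the genes' own sequence.

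Genes with H3K4me2 and no H3K27me3 at all were led, by length, by Gse1, Aopep, Msi2, Camta1, Maml3, Foxp1, Rere and Arid1b, all long genes, with H3K4me2 over 59.7 kb (Arid1b) to 122 kb (Gse1) in the lower line. By share of the window the leading genes included Hoxb5, H3c8, Nkx2-1 and Junb. Hoxb5, a HOX gene (chr11:96303512-96306121), had H3K4me2 over 21.5 and 21.1 kb of a 22.6 kb window. Nkx2-1 (chr12:56531935-56536908) had 18.9 and 19.7 kb of 25.0 kb. H3c8 encodes histone H3 and Junb a subunit of the AP-1 factor, and they had H3K4me2 over 76.3 and 73.3% of the window in the lower line.

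Genes with H3K27me3 and no H3K4me2 at all were led, by length, by Ttn, Adra1a, Sycp2l and Ankfn1. Ttn, the giant sarcomere protein titin (chr2:76703980-76982557), had 63.4 and 88.5 kb of H3K27me3 in 159-1 and 1014 in a window of 299 kb. Adra1a, an adrenergic receptor (chr14:66635251-66771240), had 47.9 and 107 kb of 156 kb. Blk, a B cell kinase (chr14:63372837-63417187), had 32.8 and 61.3 kb of 64.4 kb, and Ntf3, the neurotrophin NT-3 (chr6:126101412-126166772), 28.3 and 66.8 kb of 85.4 kb. Values in 1014 were higher at each of these 4 genes, as was the whole H3K27me3 list of that line. Glp2r and Slc38a4 completed the ranking by length. By share of the window Hoxc11, Hoxa11, Hoxa6, Papolb and Bmp10 led, with 77.3% (Bmp10) to 98.1% (Hoxc11) in the lower line.

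**Figure D3:**
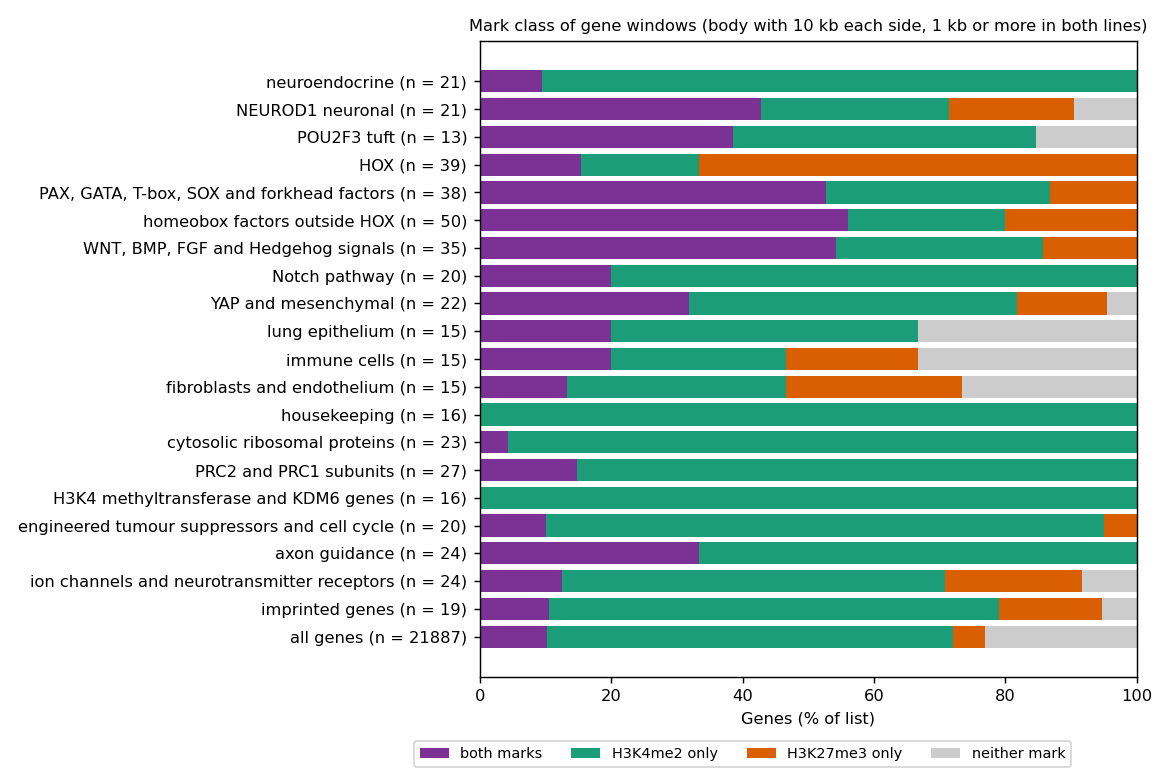
Share of genes (% of each list, x axis) with both marks, H3K4me2 only, H3K27me3 only or neither, for 20 gene lists and all genes (bottom bar). Neuroendocrine, housekeeping and ribosomal protein lists are nearly all H3K4me2 only, HOX genes are mostly H3K27me3 only, and developmental regulators outside HOX most often have both marks.

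The 20 gene lists held 462 genes. They were chosen with earlier results of these data known, several share genes, and neighbouring genes share windows, so their counts are a description to be read beside the shares of all genes. Of all H3K4me2-only genes, 87.0% were in that class by 1014 alone and 98.9% by 159-1 alone. The 1 kb rule takes no account of window length. Median windows were 43.4 kb with both marks, 43.1 kb with H3K4me2 only, 30.9 kb with H3K27me3 only and 24.4 kb with neither. The part of window length in the list shares was not tested. Of 21 neuroendocrine genes, 19 had H3K4me2 only (90.5%, against 61.8% of all genes) and 2, Stmn2 and Gfi1b, had both marks. Dll3, a Notch ligand, had H3K4me2 over 39.0% of its window in the lower line, with no H3K27me3. Insm1, a zinc finger factor of neuroendocrine cells, had 13.1 and 15.3 kb, and Nfib, a factor amplified in mouse small cell lung cancer, 33.5 and 35.6 kb. Stmn2, a neuronal microtubule regulator, differed from these with 2.60 and 3.31 kb of H3K4me2 and 1.75 and 7.84 kb of H3K27me3.

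The 21 genes of the NEUROD1 neuronal list had both marks in 9 cases (42.9%, against 10.2% of all genes), H3K4me2 only in 6, H3K27me3 only in 4 and neither in 2, and 9 were co-covered. Neurod1, which encodes the factor of the NEUROD1 subtype, had 2.82 and 4.50 kb of H3K4me2 and 5.20 and 14.0 kb of H3K27me3. At its start the 2000-base window held 1620 and 2000 bases of H3K4me2, but 303 bases of H3K27me3 in 159-1 against 2000 in 1014, so the start itself passed the both-marks rule only in 1014. Onecut1 and Pou3f2, factors of neuronal and endodermal cells, had all or most of their H3K4me2 inside H3K27me3, with 3.64 and 3.82 kb and with 3.41 and 4.84 kb under both. Otx2, a forebrain and eye factor, had no H3K4me2 and 22.1 and 27.1 kb of H3K27me3. The neuronal genes Tubb3, Elavl3 and Elavl4, named after their values were seen, had H3K4me2 and no base of H3K27me3 in both lines.

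Tuft cell genes were split. Pou2f3, which encodes the factor of the tuft subtype, lay in an H3K27me3 domain of 63.3 kb in 159-1 and 93.2 kb in 1014, with 1.05 and 2.07 kb of H3K4me2, of which 1.05 and 1.82 kb lay under both marks. Ascl2, a basic helix-loop-helix factor, had 11.1 and 16.8 kb of H3K27me3 and 2.19 and 2.34 kb of H3K4me2, all under both. Sox9, a progenitor factor, and Chat, the acetylcholine synthase, had both marks as well, while Trpm5, a taste channel, and Avil, a cytoskeletal protein of tuft cells, had H3K4me2 only. In all, 5 of 13 tuft genes had both marks (38.5%, against 10.2% of all genes) and 6 H3K4me2 only, of which 4 had at least 1 kb of H3K27me3 in 1014 and none in 159-1.

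HOX genes, which pattern the body axis, divided by cluster. Of 39 genes, 26 had H3K27me3 only (against 5.01% of all genes), 7 H3K4me2 only and 6 both. All 11 Hoxa genes were H3K27me3 only, with 81.8 to 96.8% of the window under H3K27me3 in 159-1 and 96.4 to 100% in 1014. Hoxc had 8 of 9 genes and Hoxd 6 of 9 genes with H3K27me3 only, and the other 4 of these clusters had both marks. Hoxb stood apart with 7 of 10 genes H3K4me2 only, 2 with both and 1 with H3K27me3 only. Hoxb3 had 47.4 and 59.3 kb of H3K4me2 with no H3K27me3, and Hoxb9 at the 5′ side of that block had 16.7 and 12.5 kb of H3K4me2 beside 10.1 and 9.70 kb of H3K27me3, with 1.53 and 1.18 kb under both. Hoxb13, the most 5′ gene, had 0 and 1.43 kb of H3K4me2 and 20.5 and 22.3 kb of H3K27me3. Genes of a cluster share most of their windows, so each cluster is nearer to 1 observation than to its number of genes.

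Developmental transcription factors outside HOX most often had both marks. Among 50 homeobox factors 28 had both (56.0%, against 10.2% of all genes), 12 H3K4me2 only, 10 H3K27me3 only and none neither, and 21 were co-covered (4.38% of all genes). Of the 12 with H3K4me2 only, 5 had at least 1 kb of H3K27me3 in 1014. Dlx2, of forebrain interneurons, had 4.26 and 4.86 kb of H3K4me2, 17.5 and 22.1 kb of H3K27me3, and 4.21 and 4.86 kb under both, and Nkx2-5, of the heart, had all of its 3.83 and 4.11 kb under both. Meis2 had 49.7 and 50.8 kb of H3K4me2 with 0 and 0.736 kb of H3K27me3, while its relative Meis1 had 7.06 and 20.0 kb of H3K4me2 and 4.45 and 32.9 kb of H3K27me3.

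PAX, GATA, T-box, SOX and forkhead factors gave 20 of 38 with both marks (52.6%, against 10.2% of all genes), 13 with H3K4me2 only and 5 with H3K27me3 only, and 19 were co-covered. Tbx2, Eomes, Pax5 and Pax9 had the most co-covered length. Tbx2, a lung and limb T-box factor, had 6.67 and 6.52 kb of H3K4me2 and 21.9 and 25.7 kb of H3K27me3, with 5.63 and 6.52 kb under both, and Pax5, the B cell factor, had 4.98 and 6.34 kb inside or beside 106 and 153 kb of H3K27me3. Foxa1 and Foxa2, pioneer factors of endoderm, Sox2, Sox4 and Sox11, of neural and neuroendocrine progenitors, had 7.70 kb (Sox11) to 18.9 kb (Foxa2) of H3K4me2 with no base of H3K27me3. Tbx4, of hindlimb and lung mesenchyme, and Pax1, of the sclerotome, had H3K27me3 over 41.8 and 49.7 kb and over 16.8 and 28.0 kb, with under 1 kb of H3K4me2.

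**Figure D4:**
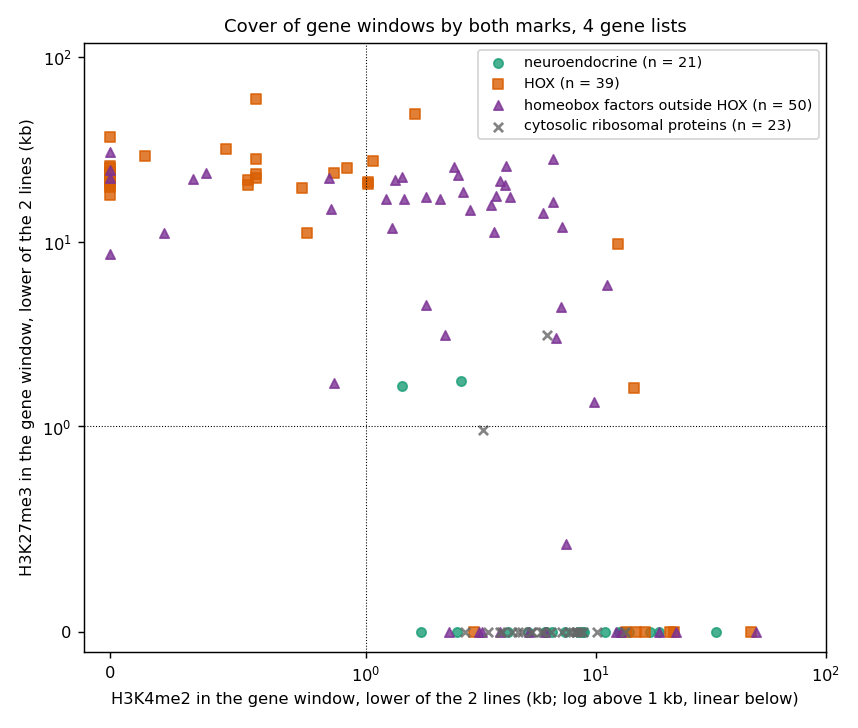
H3K4me2 cover (kb, x axis) against H3K27me3 cover (kb, y axis) of gene windows, each the lower of the 2 lines, for 4 gene lists; axes are log above 1 kb and linear below, and dotted lines mark the 1 kb threshold. Ribosomal and neuroendocrine genes lie along the bottom, HOX genes fall in an upper left and a lower right group, and homeobox factors outside HOX fill the upper right.

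Of 35 WNT, BMP, FGF and Hedgehog genes 19 had both marks (54.3%, against 10.2% of all genes), 11 H3K4me2 only and 5 H3K27me3 only, and 14 were co-covered. Wnt6 had 7.83 and 7.76 kb of H3K4me2 with 18.3 and 33.2 kb of H3K27me3, and Wnt1 5.88 and 5.70 kb with 11.9 and 21.9 kb. Gli2, a Hedgehog effector, had 3.80 and 6.13 kb of H3K4me2 in an H3K27me3 domain of 124 and 194 kb, whereas Gli3 had 8.15 and 9.20 kb of H3K4me2 and no H3K27me3. Fgf3 and Fgf4, early developmental growth factors, had H3K27me3 only. Of the 11 genes with H3K4me2 only, 8 had at least 1 kb of H3K27me3 in 1014, such as Wnt5a with 0 kb in 159-1 and 26.8 kb in 1014, so this list's split differed between the lines.

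Notch genes were mostly under the active mark alone, with H3K4me2 only at 16 of 20 (80%, against 61.8% of all genes), both marks at 4 (20.0%, against 10.2%) and H3K27me3 only at none. The ligands Dll1, Dll4, Jag1 and Jag2 and the target Hes1 had 4.14 kb (Jag1) to 16.9 kb (Jag2) of H3K4me2 and no H3K27me3. The 4 with both marks were the receptor Notch1, with 8.33 and 7.15 kb of H3K4me2 and 6.83 and 14.3 kb of H3K27me3, the targets Hey2 and Heyl, and Rest. Rest, the repressor of neuronal genes in other tissues, had 9.70 and 18.1 kb of H3K27me3 over 2.00 and 2.02 kb of H3K4me2, all of it under both marks. Of 24 axon guidance genes 16 had H3K4me2 only (66.7%) and 8 both (33.3%), among them Epha7, an ephrin receptor, with all of its 2.89 kb of H3K27me3 in 159-1 under both marks. Of the 16, 4 had at least 1 kb of H3K27me3 in 1014 and 1 in 159-1. Median H3K4me2 cover of this list was 3.03 and 3.03% of the window in the libraries labelled 159-1 and 1014, against 6.53 and 6.67% over all genes.

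The 22 genes of the YAP and mesenchymal list had both marks in 7 (31.8%, against 10.2% of all genes), H3K4me2 only in 11, H3K27me3 only in 3 and neither in 1. Vim, the intermediate filament vimentin, had 2.38 and 2.00 kb of H3K4me2 and 4.20 and 7.98 kb of H3K27me3, and Twist1, a mesenchymal factor, 1.72 and 2.13 kb and 16.6 and 19.7 kb. Wwtr1, which encodes the YAP paralogue TAZ, Tead4 and the YAP target Ccn2 had both marks too. Yap1 itself had 2.26 and 3.26 kb of H3K4me2 with no H3K27me3, and the epithelial adhesion genes Cdh1 and Epcam had 30.7 and 23.3 kb and 6.11 and 5.93 kb of H3K4me2 with none. Lung epithelial genes had H3K4me2 only in 7 of 15 (46.7%, against 61.8% of all genes), both in 3 (20.0%, against 10.2%) and neither in 5. Immune genes had both in 3 of 15 (20.0%, against 10.2% of all genes), with no co-covered base in both lines at any of them. Immune genes had H3K4me2 only in 4 (26.7%, against 61.8% of all genes), H3K27me3 only in 3 (against 5.01%) and neither in 5. Fibroblast and endothelial genes had both in 2 of 15 (13.3%), near the share of all genes. Their other classes lay farther from it, with H3K4me2 only in 5 (33.3%), H3K27me3 only in 4 and neither in 4.

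Constitutive genes mostly carried the active mark alone. All 16 housekeeping genes and all 16 genes of H3K4 methyltransferases and KDM6 enzymes had H3K4me2 only, against 61.8% of all genes. So did 22 of 23 ribosomal protein genes (95.7%) and 23 of 27 PRC2 and PRC1 subunit genes (85.2%). The PRC2 core genes Ezh2, Eed and Suz12 had 2.61 kb (Suz12) to 4.92 kb (Ezh2) of H3K4me2 with no H3K27me3. The 4 Polycomb genes with both marks (14.8%, against 10.2% of all genes) were Cbx8, Epop, Pcgf1 and Pcgf5. Cbx8, a PRC1 chromodomain gene, had 7.94 and 8.64 kb of H3K4me2, 6.81 and 9.06 kb of H3K27me3 and 3.03 and 4.70 kb under both. Kdm6a, the gene mutated in the other lines, had 3.10 and 4.38 kb of H3K4me2 with 0 and 1.09 kb of H3K27me3, and Kdm6b, its paralogue, 20.5 and 19.7 kb with 0.689 and 5.47 kb.

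Cell cycle genes had H3K4me2 only in 17 of 20 (85.0%, against 61.8% of all genes). The engineered tumour suppressor genes Rb1, Trp53 and Rbl2 had 8.26 and 12.8 kb, 7.74 and 7.89 kb, and 5.05 and 5.22 kb of H3K4me2 in their windows, which says nothing of the deleted exons. The exceptions were Ccnd1, Ccnd2 and Cdk6, which encode D cyclins and a kinase partner upstream of the RB protein. Ccnd1 had 5.30 and 5.46 kb of H3K4me2 with 8.83 and 13.2 kb of H3K27me3, and Ccnd2 0.714 and 0.634 kb with 28.7 and 45.1 kb. Cdk6 had 6.12 and 4.71 kb with 22.5 and 65.5 kb, whereas Cdk4 had 11.3 and 11.7 kb of H3K4me2 and no H3K27me3. Channels and neurotransmitter receptors had H3K4me2 only in 14 of 24 (58.3%) and both in 3 (12.5%), near the 61.8 and 10.2% of all genes. Of the 14, 5 had at least 1 kb of H3K27me3 in 1014. H3K27me3 only, at 5 of 24, was more frequent than the 5.01% of all genes. Imprinted genes had H3K4me2 only in 13 of 19 and both in 2, Phlda2 and Grb10. These shares of 68.4 and 10.5% again lay near those of all genes, but 6 of the 13 had at least 1 kb of H3K27me3 in 1014. H3K27me3 only lay at 3 of 19, Dlk1, Rtl1 and Magel2, again more often than the 5.01% of all genes.

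KDM6A and H3K4me1, which had not defined the bins, lay on the classes unequally. KDM6A lay on 26.1 and 17.7% of bins with both marks in 159-1 and 1014, on 34.3 and 29.7% of H3K4me2-only bins, on 0.694 and 0.278% of H3K27me3-only bins and on 0.262 and 0.151% of bins with neither. Near gene ends the shares were 26.9 and 17.0% with both marks against 38.2 and 34.5% with H3K4me2 only. H3K4me1 lay on 82.6 and 69.7% of bins with both marks and on 51.7 and 51.1% of H3K4me2-only bins. That gap stood mainly near gene ends, with 82.3 and 68.5% against 32.1 and 30.1%, while farther away it was 83.3 and 72.4% against 70.2 and 71.1%. Over all bins the mean gap of 24.7 percentage points was 8.67 where bins were called at any cover. Among H3K4me2 bins, those with H3K27me3 thus held KDM6A less often, and near gene ends held H3K4me1 more often, in each of 2 lines. With 2 lines no test of this can pass a threshold, since the smallest exact sign-flip p is 0.5.

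**Figure D5:**
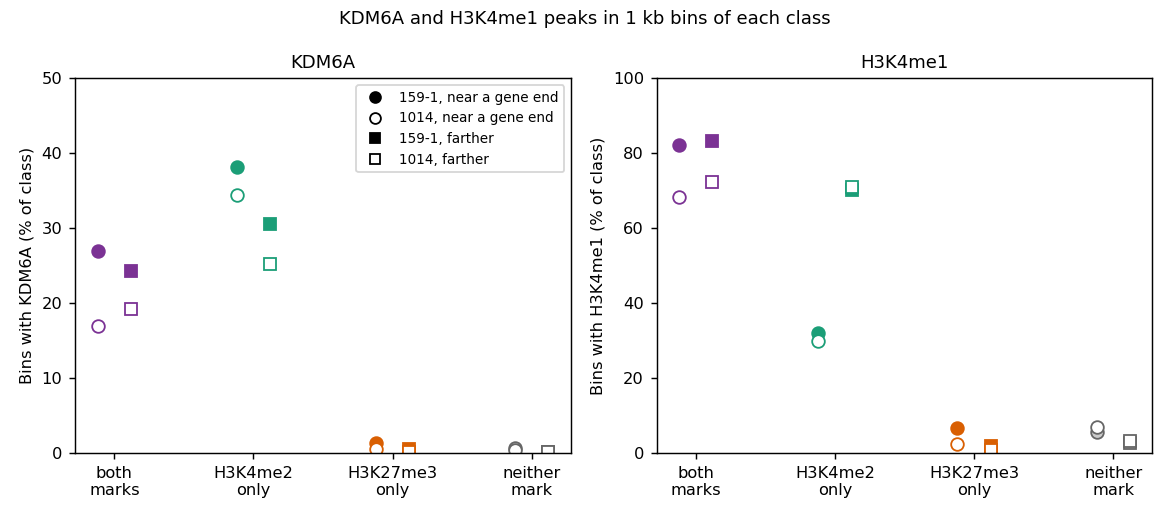
Share of 1 kb bins with a KDM6A peak (left, %) or an H3K4me1 peak (right, %) in each mark class (x axis), within 2.5 kb of a gene end (circles) and farther away (squares), in 159-1 (filled) and 1014 (open). H3K4me1 near gene ends is at 82.3 and 68.5% of bins with both marks, against 32.1 and 30.1% of H3K4me2-only bins.

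Peak strength within a list was related to the other mark as well. H3K4me2 peaks with at least 50% of their length under H3K27me3 had a median authors' fold of 5.71 and 5.99 in the libraries labelled 159-1 and 1014, against 4.70 and 5.18 for peaks with none. H3K27me3 peaks under H3K4me2 had 3.41 and 3.07 in 159-1 and 1014 against 3.32 and 2.98, and 17.5 and 26.4% of them had a q up to 0.001 against 3.51 and 7.19% of those with no H3K4me2. They were wider too, at a median of 1.03 and 1.11 kb against 0.775 and 0.858 kb.

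In the mutant lines, whose libraries had not defined the classes, bins with both marks in the controls had H3K4me2 in 94.6% of cases in 236L and 97.5% in 236R, and H3K4me2-only bins in 62.4 and 76.5%. H3K27me3 was called on 60.1 and 50.7% of the control bins with both marks in 236L and 236R, but on 13.7 and 34.0% of H3K27me3-only bins. Bins with both marks in the controls thus had each mark more often than bins with that mark alone, in each of the 2 mutant lines. The mutant lines are other lines than the controls, so no loss or gain was followed. Peaks under both marks were also the stronger ones within a list, as given above, and the part of peak strength was not tested. Within a line, 39.8% of H3K27me3 bins of 236L and 11.7% of those of 236R had H3K4me2, against 5.45% in 159-1 and 4.54% in 1014, a mean of 25.8 ± 19.9% in mutant and 4.99 ± 0.643% in control lines (SD, n = 2 each; exact two-sided permutation p = 0.333, the smallest possible). The odds ratio near gene ends was 5.88 and 1.85 in 236L and 236R, against 0.981 and 0.916 in 159-1 and 1014, with the same exact p of 0.333. These values move with list length, since the mutant lines had 12934 and 27916 H3K27me3 bins against 42399 and 105900 in the controls, and the part of list length in them was not tested.

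Between the control lines, H3K4me2 was the more alike mark: the bins of both lines shared 0.693 of their union for H3K4me2 and 0.279 for H3K27me3, beside 0.566 for H3K4me1 and 0.433 for KDM6A. H3K27me3 of 159-1 was shared to 76.3% while that of 1014, the longer list, was shared to 30.5%. Bins with H3K4me2 alone in one line and H3K27me3 alone in the other were rare, 375 by sample label and 835 with the H3K4me2 lists exchanged. By label, 46 genes had H3K4me2 only in 159-1 and H3K27me3 only in 1014, and 2 the reverse. Among the 46, Abcc2, a bile salt and drug exporter, had 2.28 and 0.401 kb of H3K4me2 in the libraries labelled 159-1 and 1014. Its H3K27me3 was 0.853 and 37.8 kb in 159-1 and 1014. Lrrtm1, a synaptic adhesion gene, had 2.31 and 0 kb of H3K4me2 and 0 and 3.66 kb of H3K27me3, in the same order. With the H3K4me2 lists exchanged, the higher H3K4me2 of both genes falls in 1014, the line with more H3K27me3. H3K4me1 of 159-1 and 1014 covered 0.526 and 3.94 kb at Abcc2, and 0.581 and 0.588 kb at Lrrtm1. Zfp978, Brinp3 and Cxcl2 were the other 3 that the ranking named, and Mettl21e and Actl9 the 2 in reverse, with differences of under 1.5 kb in each mark. These genes carry the doubt about the H3K4me2 labels and their numbers are given by label alone. None can be tested with 1 library per line and mark.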

How the data were processed

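Peak lists of H3K4me2 and H3K27me3 ChIP-seq libraries were analysed, 1 per mark and line. The submitters' processing notes name Bowtie2 2.4.2, MACS3 3.0.0a7 and the mm10 build; the peak threshold, control track and handling of duplicates are not given in these sources. The authors deposited for each broad peak its position, a fold enrichment (a linear ratio) and a −log10 p-value and −log10 q-value; folds and q were used only within a list. No read counts were used, so depth is unknown and no counting interval is given.

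Merged peaks of the assembled chromosomes were measured in 1 kb bins (at least 50% cover in both lines), gene windows (RefSeq genes of GRCm38.p6 with 10 kb each side, at least 1 kb in both lines) and start windows (1 kb each side). Scripts used Python 3.11.15, NumPy 2.4.6, pandas 2.3.3 and SciPy 1.17.1, and were tested on simulated data. Marks were compared by an exact two-sided permutation test of 2 libraries against 2, which holds for these libraries only and cannot go below p = 0.333. The same 2 lines pair the marks, which this test left out and the alternative with line as a replicate block took up.

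Members, gene lists and comparisons were chosen with earlier results of these data known. Genes named by rule were those with the most co-covered length, the most cover by 1 mark alone (by kb and by share of the window, overall and in each list), opposite marks in the 2 lines, cell type markers and the engineered genes; other genes were named after their values were seen. List entries not found among the protein-coding genes were left out, as were peaks on unplaced contigs. Some genes that these rules name are not reported here.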

Additional observations from a re-analysis of the deposited data

How the results depend on the processing

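Of 86 alternative values, 52 counted as the same, 32 moved and 2 changed sign. Counts were the same within 1.5 times the main count, and odds ratios and gaps within the SD between the lines. Differences between the marks in covered length and median width were the same wherever the sign held, whatever their size. With peaks of q up to 0.001 the covered length difference was 54.7 Mb in place of 8.57 Mb. The cause of a change was not tested unless stated. Calling bins marked at any cover gave 4452 bins with both marks, 113643 with H3K4me2 only and 55897 with H3K27me3 only, odds ratios of 1.79 over all bins and 1.07 near gene ends, and a gap in H3K4me1 share between bins with both marks and H3K4me2-only bins of 8.67 percentage points in place of 24.7. At 80% cover 832 bins had both marks and 43462 H3K4me2 only, and the odds ratio near gene ends was 0.725. Peaks of q up to 0.001, which drop most H3K27me3 peaks, gave 778 bins with both marks, 5441 with H3K27me3 only, odds ratios of 5.98 and 1.10, 625 genes with both marks and 312 with H3K27me3 only, and turned the difference in median peak width, H3K4me2 minus H3K27me3, to -2.41 kb. Lists trimmed to equal length per mark gave 19022 H3K27me3-only bins, odds ratios of 3.41 and 1.15, and 676 H3K27me3-only genes. Genes with both marks numbered 3369 at any cover, 1377 at 2 kb, 1057 in the gene body alone, 967 within 2.5 kb of the gene ends and 5448 with 50 kb each side, where H3K27me3-only genes numbered 683.

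Leaving out one line and using the other alone gave 2309 to 4804 bins with both marks, 78286 to 79303 with H3K4me2 only and 40090 to 101096 with H3K27me3 only, the higher H3K27me3 values without 159-1. Odds ratios ran from 1.52 to 1.91 over all bins and from 0.916 to 0.981 near gene ends. Genes ran from 2526 to 4136 with both marks, 11915 to 13557 with H3K4me2 only, 1030 to 1429 with H3K27me3 only and 4407 to 4774 with neither. The covered length difference ran from -22.7 to 39.8 Mb, negative without 159-1, and that in peak width from 0.152 to 0.158 kb. The gap in KDM6A share ran from -12.1 to -8.12 percentage points and that in H3K4me1 share from 18.6 to 30.9. With line as a replicate block, the paired exact p was 1 for the covered length difference of 8.57 Mb and 0.5, the smallest possible, for the width difference of 0.155 kb, so the block changed no call. Exchanging the H3K4me2 lists gave 835 bins of opposite state between the lines in place of 375.

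List length and depth cannot be told apart here: H3K27me3 peaks were weak, and that list of 1014 was far longer than that of 159-1. A bin or gene without a peak is below the authors' threshold, not shown to lack the mark.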
